A study of Homo sapiens with 12 samples.

Results

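Interferon-stimulated genes were examined in TC71, an established human Ewing sarcoma cell line. The members were 41 genes listed by symbol, and 37 of them had a row among the 21569 genes of the count table. MX2, TRIM22, XAF1 and EPSTI1 had none and were not analysed here. The 12 libraries of polyadenylated RNA fell into 4 groups of 3. They were a line labelled as an ID2 rescue of knockout clone 2, ID2 knockout clone 2, ID2 knockout clone 1, and wild-type TC71, all grown in DMEM with fetal bovine serum. Each knockout group is 1 clone, and the rescue line carries the knockout of the clone it came from. The labels name no interferon treatment, no infection, and no vector or promoter for the rescue. Whether replicate libraries came from different cultures is not stated in them. The p-values therefore rest on library-to-library spread alone, and that spread may be technical.

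Interferons are secreted proteins that bind paired receptors at the cell surface. Type I and type III receptors activate the kinases JAK1 and TYK2, which phosphorylate transcription factors such as STAT2. Together with IRF9, STAT2 acts in a complex that binds the interferon-stimulated response element (ISRE) and turns on a shared set of genes. Many of those genes encode proteins that detect foreign RNA, block viral entry, translation or release, or feed back on the pathway itself. In tumour cells the same genes can also be expressed at a low standing level without added interferon.

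The levels below are CPM (read counts relative to library size, with TMM scaling to correct for library composition). The deposited counts summed to between 19420408 and 29748084 per library. A gene was called at an edgeR quasi-likelihood adjusted p under 0.05, adjusted by Benjamini-Hochberg over all 17084 genes tested, and 35 of the 37 measured members were among these. MX1 and SAMD9L had too few reads to be tested. ID2 RNA was 41.5 ± 0.537 CPM in the libraries labelled rescue, 50.9 ± 3.16 CPM in clone 2, 18.1 ± 0.777 CPM in clone 1 and 77.9 ± 0.657 CPM in wild-type (SD, n = 3 each). The libraries labelled rescue thus had less ID2 RNA than the clone they derive from (log2 fold change -0.29, SE 0.05), which goes against that label at the RNA level. All 8 Ewing sarcoma markers examined, among them NR0B1, NKX2-2 and CD99, were expressed. Of 15 immune cell markers, 8 had a row and their CPM summed to between 1.86 and 2.90 in the libraries labelled rescue, 5.52 and 6.53 in clone 2, 3.29 and 3.70 in clone 1, and 1.05 and 1.69 in wild-type. PTPRC, the pan-leukocyte marker, had between 4 and 8 reads in each group of 3 libraries, and the markers with no row included CD3E, CD8A, MS4A1, CD68, NKG7 and CLEC4C. Relative to wild-type, ITGAM, CSF1R and CD14 were called higher in both clones and IL3RA in clone 2, while CD4 was called in neither. ITGAM had 13 reads in the libraries labelled rescue, 162 in clone 2 and 31 in clone 1, against 14 in wild-type. CSF1R had 23, 51 and 106 reads, against 20, in the same order. The summed CPM of 5 fibroblast markers, mostly COL1A1 and PDGFRB, was 38.8 to 44.9 in the libraries labelled rescue, 132.4 to 145.5 in clone 2, 278.5 to 293.8 in clone 1 and 136.9 to 142.1 in wild-type. The part of these markers in the results below was not tested. In bulk RNA, fewer cells that express a gene and less of its RNA per cell cannot be told apart.

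The summed level of the 37 members set clone 1 apart from the other groups. It was 498.2, 513.8 and 515.4 CPM in the libraries labelled rescue and 467.4, 463.1 and 458.3 CPM in clone 2. In clone 1 it was 819.4, 809.2 and 814.6 CPM, against 459.2, 475.9 and 466 CPM in wild-type. The 3 IFITM genes alone gave 26.2% to 26.9% of that sum in the libraries labelled rescue, 25.4% to 26.8% in clone 2, 43.6% to 44.6% in clone 1 and 40.8% to 43.3% in wild-type. The sums of clone 2 and wild-type overlapped, while the IFITM part was smaller in clone 2.

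**Figure D1:**
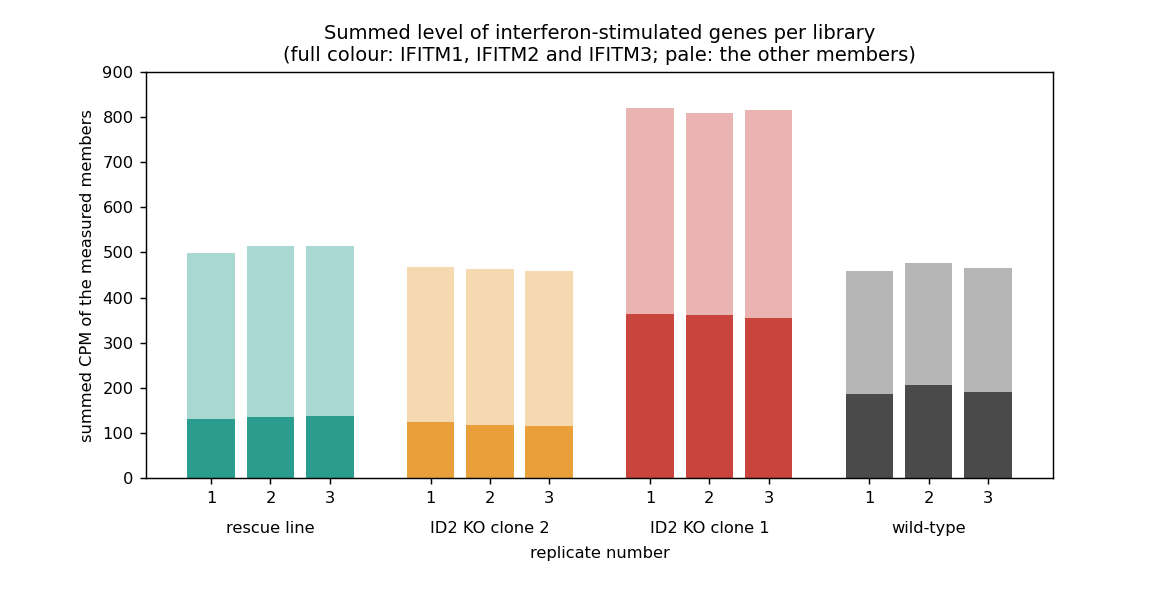
Summed CPM of the 37 measured interferon-stimulated genes (vertical axis) in each of the 12 libraries, by group and replicate number, with IFITM1, IFITM2 and IFITM3 in full colour and the other members in pale colour. The 3 clone 1 libraries stand between 809.2 and 819.4 CPM, and the libraries of the other groups lie between 458.3 and 515.4 CPM.

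Per kilobase of exon, the order of the members in wild-type ran from abundant to barely detected. IFITM3 led with 94.4 CPM per kb, followed by IFITM2 with 26.5 and IFITM1 with 24.4 CPM per kb. IFIT5, ISG15 and IFI6 stood at 11.7, 11.6 and 10.6 CPM per kb, and USP18, IFI44 and STAT2 between 7.26 and 9.27 CPM per kb. Neighbours in this order lay close together, and no difference between them was tested. At the other end, MX1 stood at 0.00733 CPM per kb from 4 reads, and SAMD9L and OAS2 had no read in wild-type. The set therefore held some genes with a standing level in these cells and others, MX1 among them, that were close to silent.

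The promoters of the members were searched for the letters of the ISRE core, TTTCNNTTTC, and of the gamma-activated site, TTCNNNGAA, on both strands. Sequences were from RefSeq (GRCh38.p14), in windows of 300 bases from 250 before to 50 after an annotated start, and 32 of the 41 symbols had a window. The ISRE core was present for 22 of these 32 genes (68.8%), against 4.38% of all 27305 genes with a window. The gamma-activated site was present for 10 of the 32 (31.2%), against 9.38% of all genes. A match is a description of the letters, and its absence says only that they are not in this window. Relative to wild-type, an ISRE core was present for 14 of the 19 genes with a window among members called higher in clone 1, 2 of the 3 called lower and 4 of the 6 not called.

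The stretches below show 1 element region for each member that had an ISRE core and was called with at least a 2-fold change in either clone over wild-type, apart from HERC5, which is shown further on. IFIT5, not called in either clone, and IFI44, called lower in both, are added for contrast. Capitals mark every ISRE core, on either strand, that lies whole within the stretch, and each line runs 5′ to 3′ on the gene's own strand.
BST2 (chr19:17405725-17405780, minus strand): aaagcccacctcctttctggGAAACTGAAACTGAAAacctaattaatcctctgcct
IFI6 (chr1:27672256-27672305, minus strand): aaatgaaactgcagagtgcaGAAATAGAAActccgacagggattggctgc
IFI27 (chr14:94110608-94110657, plus strand): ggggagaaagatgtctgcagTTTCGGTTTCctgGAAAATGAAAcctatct
IFIH1 (chr2:162318808-162318863, minus strand): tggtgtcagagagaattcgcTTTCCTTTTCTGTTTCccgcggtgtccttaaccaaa
ISG15 (chr1:1013364-1013419, plus strand): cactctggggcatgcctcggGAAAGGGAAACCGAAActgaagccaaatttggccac
ISG20 (chr15:88638927-88638976, plus strand): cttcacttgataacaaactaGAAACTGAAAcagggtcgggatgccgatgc
IFIT3 (chr10:89332458-89332507, plus strand): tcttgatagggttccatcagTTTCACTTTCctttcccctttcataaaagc
IFIT5 (chr10:89414529-89414578, plus strand): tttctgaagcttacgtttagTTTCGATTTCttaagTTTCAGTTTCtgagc
IFITM1 (chr11:314014-314063, plus strand): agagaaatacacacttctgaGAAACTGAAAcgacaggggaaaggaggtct
IFITM3 (chr11:320866-320915, minus strand): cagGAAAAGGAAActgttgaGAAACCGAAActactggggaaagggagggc
SAMD9 (chr7:93118086-93118135, minus strand): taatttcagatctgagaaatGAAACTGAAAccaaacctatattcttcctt
RSAD2 (chr2:6877612-6877661, plus strand): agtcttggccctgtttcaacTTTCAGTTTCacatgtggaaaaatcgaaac
IFI44 (chr1:78649751-78649800, plus strand): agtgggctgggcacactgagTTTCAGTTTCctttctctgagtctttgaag

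**Figure D2:**
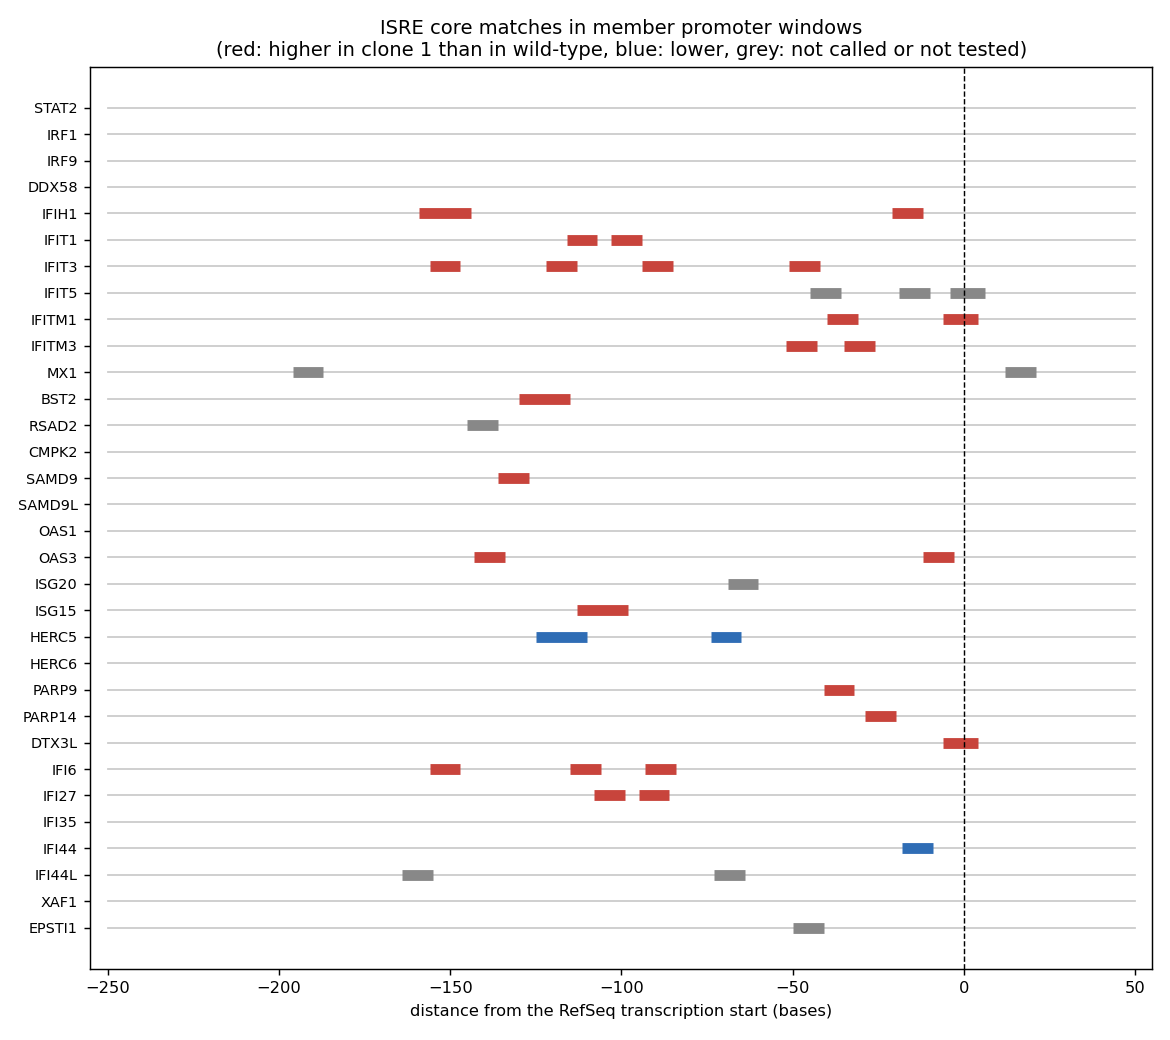
Position of ISRE core matches (coloured bars) in the promoter windows of the 32 members with a RefSeq window, as distance in bases from the transcription start, with matches from all windows of a gene drawn on 1 line. Red genes were higher in clone 1 than in wild-type, blue genes were lower and grey genes were not called, not tested or not measured. HERC5 and IFI44 are the blue genes with a match.

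In clone 1, most of the tested members rose. Of 35 tested, 26 were higher than in wild-type, 3 were lower and 6 were not called. Of all genes tested, 61.5% were called, 30.8% higher and 30.7% lower. A change of at least 2-fold was called upward for 15 members and downward for 2, against 9.61% and 4.06% of all genes. Their median log2 fold change was 0.80, against 0.01 over all genes tested. The filter on low counts keeps genes that are low in wild-type when another group is high, as for OAS2 and BST2, so these counts describe the tested members and are not a test of the list.

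In clone 2, the members divided. Of the same 35, 17 were higher than in wild-type, 7 were lower and 11 were not called, where 62.1% of all genes were called, 31.5% higher and 30.6% lower. At least 2-fold changes were called upward for 8 members and downward for 1, against 10.4% and 2.87% of all genes. The median log2 fold change was 0.25, against 0.01 over all genes. Both comparisons use the same 3 wild-type libraries, so their values are given side by side below and not as independent evidence.

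Between the libraries labelled rescue and clone 2, 12 members were higher, 2 were lower and 21 were not called, where 39.2% of all genes were called, 19.3% higher and 19.9% lower. No member was called with a 2-fold change in this comparison, where 0.48% of all genes were at least 2-fold higher and 4.47% at least 2-fold lower. Against wild-type, the libraries labelled rescue had 20 members higher and 5 lower, where 58.4% of all genes were called, 28.5% higher and 29.9% lower. At least 2-fold changes there were called upward for 9 members and downward for 1, against 6.78% and 3.97% of all genes. Between the knockout clones, 6 members were called up and 22 down in clone 2 relative to clone 1, where 62.2% of all genes were called, 30.3% higher and 31.9% lower. At least 2-fold changes were called upward for 4 members and downward for 12, against 7.29% and 6.64% of all genes. The median log2 fold change of clone 2 over clone 1 was -0.60, against 0.00 over all genes.

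**Figure D3:**
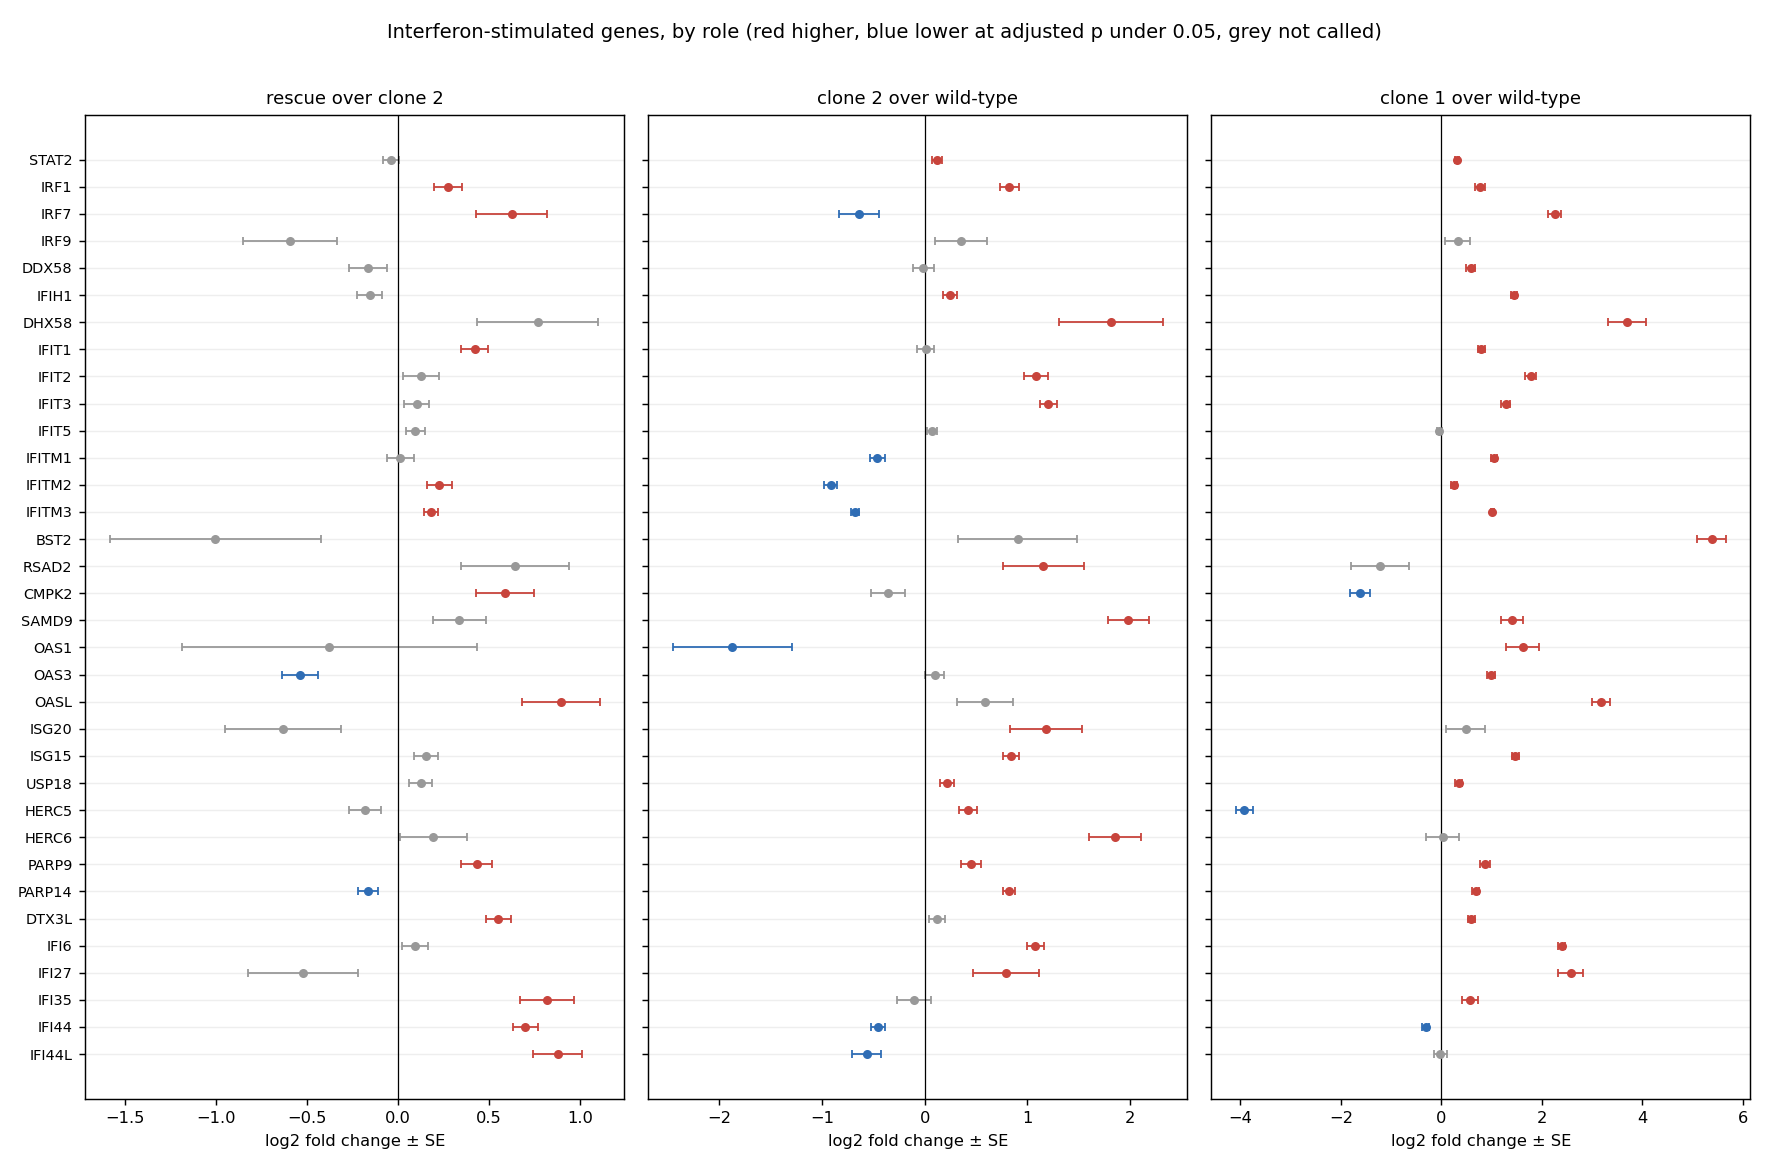
log2 fold change ± SE (horizontal axes, a separate scale in each panel) of 34 tested interferon-stimulated genes, ordered by role, for the libraries labelled rescue over clone 2, clone 2 over wild-type and clone 1 over wild-type. Red and blue points were called higher and lower, and grey points were not called. OAS2, with no read in clone 2 or wild-type, is left out. Most points of the clone 1 panel are red, with HERC5, CMPK2 and IFI44 in blue.

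Among the transcription factors, IRF7 moved most. IRF7, which amplifies type I interferon transcription, stood at 2.06, 2.05 and 1.64 CPM in the libraries labelled rescue and 1.33, 1.11 and 1.25 CPM in clone 2. It stood at 9.35, 8.89 and 9.63 CPM in clone 1, against 1.93, 2.28 and 1.69 CPM in wild-type. All clone 1 libraries lay above every other library, and all clone 2 libraries lay below every other library. The log2 fold change was 2.26 (SE 0.13) in clone 1 and -0.64 (SE 0.20; edgeR adjusted p = 0.00459) in clone 2. It was 0.63 (SE 0.19) in the libraries labelled rescue over clone 2, and their values overlapped with those of wild-type. IRF7 lies on chromosome 11, whose 711 genes at 1 CPM or more had a median log2 fold change of -0.60 in clone 2 and -0.02 in clone 1, and the part of this shift in the result was not tested.

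The other factors changed less. IRF1, a factor induced by interferon gamma, averaged 13.8 ± 0.968 CPM in the libraries labelled rescue, 11.5 ± 0.605 CPM in clone 2, 11.0 ± 0.651 CPM in clone 1 and 6.41 ± 0.309 CPM in wild-type (SD, n = 3 each). It rose by log2 fold changes of 0.83 (SE 0.09) in clone 2 and 0.77 (SE 0.09) in clone 1, and was 0.28 (SE 0.08) higher again in the libraries labelled rescue than in clone 2. IRF1 shares 1716 of its 7799 exon bases with an antisense gene, and the strand setting of the counts is not given in the sources used here. STAT2, the STAT of the ISRE-binding complex, was higher in clone 1 (log2 fold change 0.32, SE 0.04). In clone 2 the STAT2 log2 fold change was 0.12 (SE 0.05), a call that was lost with no filter on low counts (0.09). It was also lost without wild-type replicate 1 (0.09) or replicate 3 (0.10) and without clone 2 replicate 1 (0.11) or replicate 2 (0.09). IRF9, the DNA-binding partner of that complex, was not called in any comparison with all libraries, with 0.865 ± 0.327 CPM in the libraries labelled rescue, 1.28 ± 0.272 CPM in clone 2, 1.27 ± 0.148 CPM in clone 1 and 1.02 ± 0.103 CPM in wild-type. Its difference between the libraries labelled rescue and clone 2, a log2 fold change of -0.59 (SE 0.26), passed without rescue replicate 2 (-0.85) or clone 2 replicate 3 (-0.73), and IRF9 shares 1838 of its 3794 exon bases with another gene on its strand.

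All 3 RNA sensors rose in clone 1. DHX58 encodes LGP2, a regulator of the other sensors. It stood at 0.955, 0.504 and 0.803 CPM in the libraries labelled rescue and 0.489, 0.354 and 0.463 CPM in clone 2, and at 1.30, 1.78 and 1.77 CPM in clone 1, against 0.0839, 0.190 and 0.103 CPM in wild-type. Every library of the first 3 groups was above the 3 wild-type libraries. The log2 fold change was 3.69 (SE 0.38) in clone 1 and 1.82 (SE 0.50) in clone 2. Wild-type had 9 reads in all, so these sizes are imprecise.

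IFIH1 encodes MDA5, a sensor of long viral RNA. Its values were 15.1, 16.9 and 16.1 CPM in the libraries labelled rescue, 17.1, 18.9 and 17.8 CPM in clone 2 and 40.5, 41 and 40.7 CPM in clone 1, against 16.1, 13.3 and 15.4 CPM in wild-type. Clone 1 stood far above the rest, with a log2 fold change of 1.44 (SE 0.06), while that of clone 2 was 0.25 (SE 0.07). DDX58, which encodes the sensor RIG-I, rose in clone 1 (log2 fold change 0.58, SE 0.10). In clone 2 its mean was 7.29 ± 0.718 CPM, against 7.38 ± 0.749 CPM in wild-type, and it was not called.

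The 4 IFIT genes encode proteins that bind viral RNA ends and inhibit translation, and they lie in a row on chromosome 10. IFIT2 stood at 7.53, 8.68 and 8.37 CPM in the libraries labelled rescue, 7.54, 7.49 and 7.41 CPM in clone 2 and 11.9, 11.7 and 12.7 CPM in clone 1, against 3.06, 3.13 and 4.21 CPM in wild-type. Clone 1 was highest and wild-type lowest, without overlap. IFIT3 stood at 17.5, 18.9 and 17.8 CPM in the libraries labelled rescue, 16.5, 15.5 and 18.5 CPM in clone 2 and 18.5, 16.6 and 18.1 CPM in clone 1, against 6.80, 7.01 and 7.93 CPM in wild-type. For this gene the first 3 groups overlapped with each other and lay above wild-type.

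In log2 fold change, IFIT2 rose by 1.78 (SE 0.11) in clone 1 and by 1.09 (SE 0.12) in clone 2, and IFIT3 by 1.28 (SE 0.08) in clone 1 and by 1.21 (SE 0.08) in clone 2. IFIT1 rose in clone 1 by 0.80 (SE 0.07), while its mean in clone 2 was 12.7 ± 0.673 CPM, against 12.6 ± 0.0963 CPM in wild-type. It was higher in the libraries labelled rescue than in clone 2 (log2 fold change 0.42, SE 0.07). IFIT5, 8099 bases downstream of IFIT1, was not called in either clone, with log2 fold changes of 0.07 (SE 0.05) in clone 2 and -0.04 (SE 0.05) in clone 1. Without clone 1 replicate 3 it was called lower there (-0.13), and with upper quartile scaling it was called higher in clone 2 (0.14). IFIT5 has 3 ISRE cores in its window and IFIT1 has 2. LIPA, a lysosomal lipase gene on the opposite strand, spans IFIT1, IFIT2 and IFIT3 but shares exon bases only with IFIT2, 65 of 4101. LIPA rose by a log2 fold change of 0.47 in clone 2 and 0.36 in clone 1, and its part in the IFIT2 counts was not tested.

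The 3 IFITM genes encode membrane proteins that block viral entry, and per kilobase they were the 3 highest members in wild-type. IFITM3 stood at 89.7, 91.8 and 89.8 CPM in the libraries labelled rescue and 83.3, 77.7 and 77.3 CPM in clone 2. In clone 1 its values were 258.9, 258.7 and 254.2 CPM, against 125, 130.9 and 125.8 CPM in wild-type. The 4 groups did not overlap, with clone 1 highest and clone 2 lowest. IFITM1 showed the same separation of clone 1, with 18.4, 18.3 and 21.0 CPM in the libraries labelled rescue, 19.4, 19.9 and 17.8 CPM in clone 2 and 54.7, 54.2 and 54.3 CPM in clone 1, against 23.4, 30.4 and 25.2 CPM in wild-type.

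All 3 IFITM genes rose in clone 1 and fell in clone 2. In clone 1 the log2 fold changes were 1.05 (SE 0.06) for IFITM1, 0.26 (SE 0.06) for IFITM2 and 1.02 (SE 0.03) for IFITM3. In clone 2 they were -0.46 (SE 0.07), -0.92 (SE 0.06) and -0.68 (SE 0.04) for the same genes in that order. The family lies within the first megabase of chromosome 11, whose median in clone 2 was -0.60, as given above for IRF7. IFITM3 was higher in the libraries labelled rescue than in clone 2 (log2 fold change 0.18, SE 0.04). IFITM2 was higher there by 0.23 (SE 0.07), but its values overlapped and the call was lost without rescue replicate 3 (0.17). The 3 genes have near-identical stretches, and IFITM1 and IFITM2 share 351 annotated exon bases, so the split of reads among them is uncertain.

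**Figure D4:**
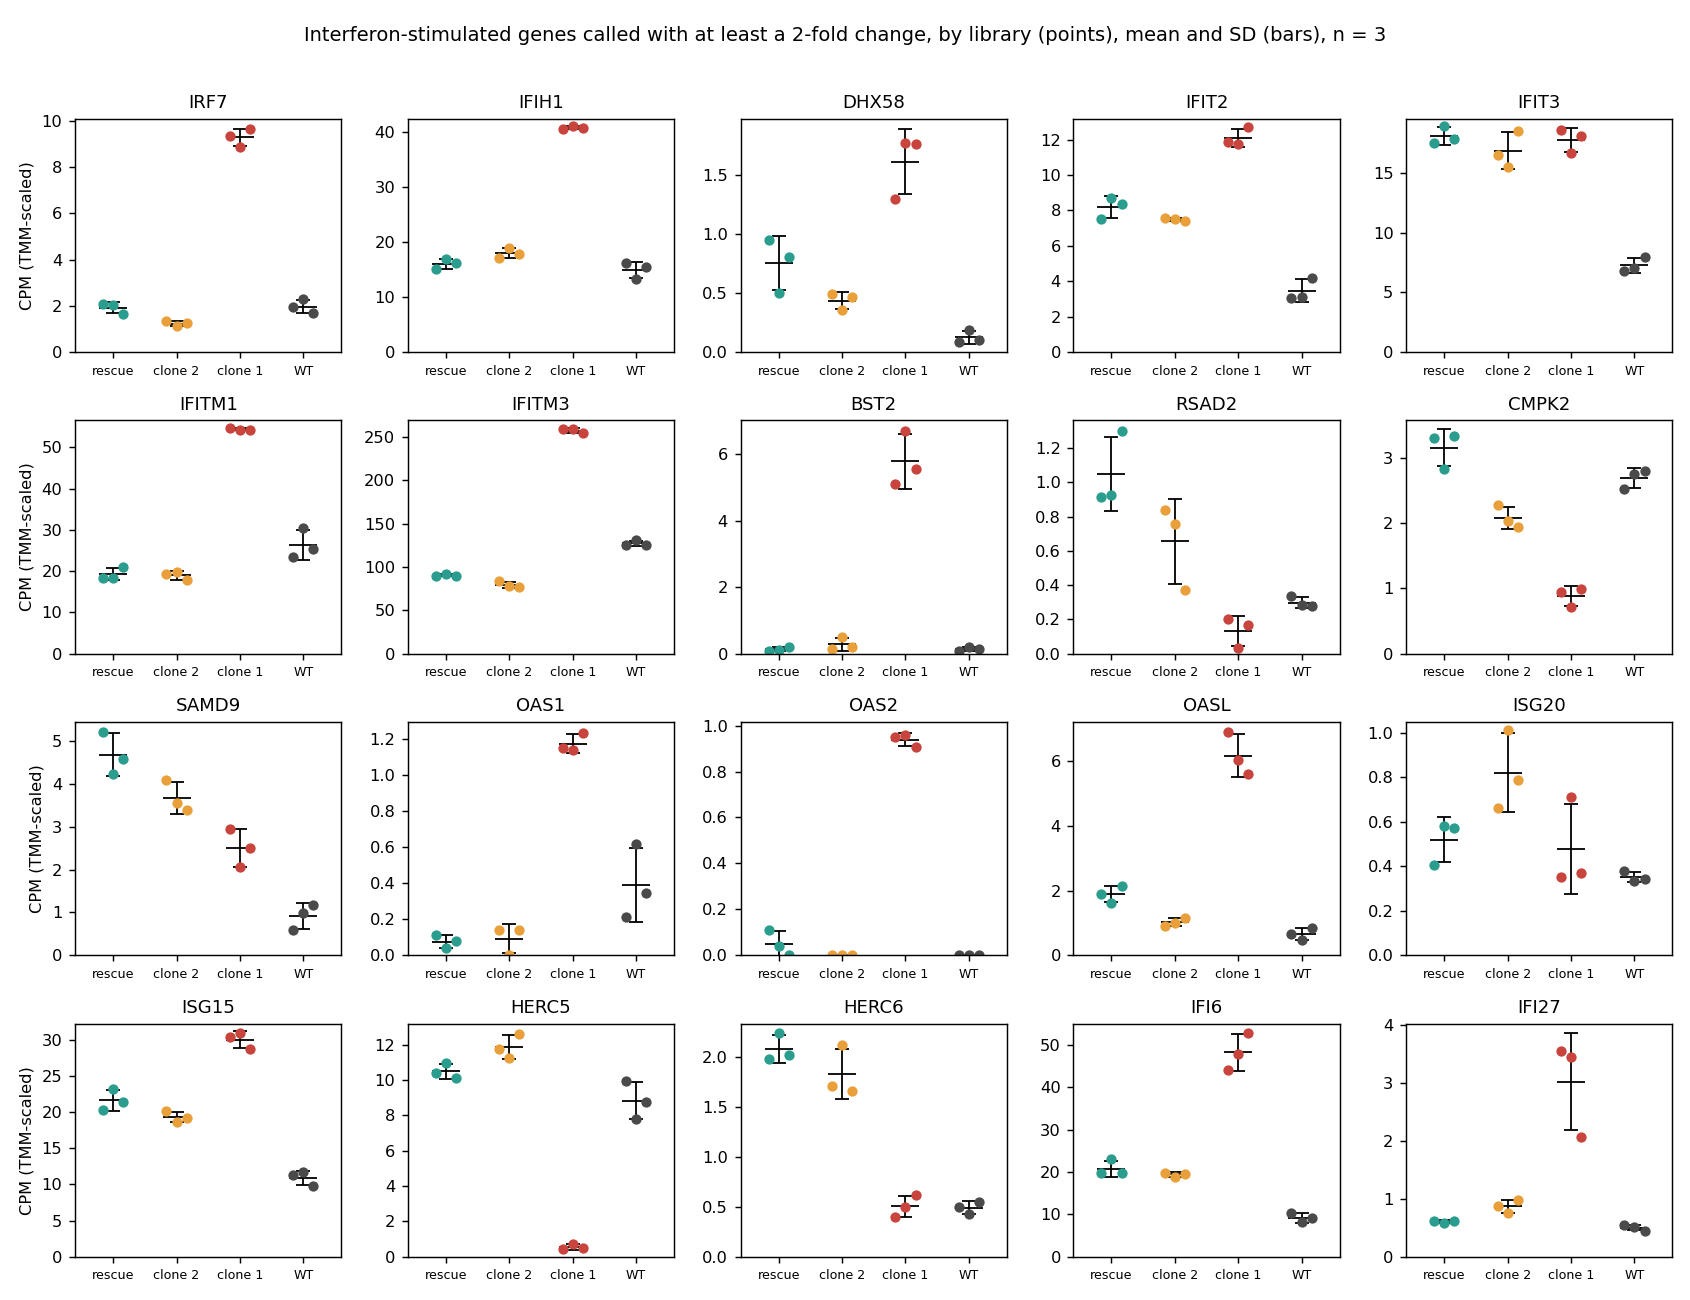
CPM by library (points) with mean and SD (bars, n = 3) for the 20 members called with at least a 2-fold change in clone 1 over wild-type or clone 2 over wild-type; none reached that in the libraries labelled rescue over clone 2. Each panel has its own axis from 0. BST2, OAS2, OASL, IRF7 and IFI27 are high in the 3 clone 1 libraries, HERC5 is near 0 there, and HERC6 is high in clone 2 and in the libraries labelled rescue.

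Among the antiviral effectors, BST2 had the largest fold change of the members with reads in wild-type. BST2 encodes tetherin, which holds budding virus particles at the cell surface. It stood at 0.0734, 0.116 and 0.191 CPM in the libraries labelled rescue, 0.140, 0.506 and 0.185 CPM in clone 2 and 5.10, 6.68 and 5.56 CPM in clone 1, against 0.0839, 0.190 and 0.138 CPM in wild-type. Only the clone 1 libraries were above 1 CPM, and wild-type held 10 reads in all. The log2 fold change was 5.38 (SE 0.29) in clone 1, and in clone 2, where it was not called, 0.91 (SE 0.58). MX1, a GTPase that traps viral particles, had 5 reads in the libraries labelled rescue, 5 in clone 2 and 30 in clone 1, against 4 in wild-type, and was not tested.

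RSAD2 and CMPK2 lie head to head on chromosome 2 and encode viperin and a mitochondrial nucleotide kinase, which work together in making a chain-terminating nucleotide. Both were lowest in clone 1. CMPK2 stood at 3.30, 2.83 and 3.33 CPM in the libraries labelled rescue, 2.27, 2.02 and 1.94 CPM in clone 2 and 0.950, 0.711 and 0.988 CPM in clone 1, against 2.52, 2.75 and 2.79 CPM in wild-type. CMPK2 fell in clone 1 (log2 fold change -1.62, SE 0.20) and was not called in clone 2 (log2 fold change -0.36, SE 0.17), and it was higher in the libraries labelled rescue than in clone 2 by 0.59 (SE 0.16). RSAD2 stood at 0.918, 0.930 and 1.30 CPM in the libraries labelled rescue, 0.838, 0.759 and 0.370 CPM in clone 2 and 0.200, 0.0356 and 0.165 CPM in clone 1, against 0.336, 0.284 and 0.276 CPM in wild-type. The clone 1 libraries lay below wild-type and the clone 2 libraries above it. Its rise in clone 2, a log2 fold change of 1.16 (SE 0.40; edgeR adjusted p = 0.0107), was not called without clone 2 replicate 1 (0.88). Its difference in clone 1 did not pass the test, at -1.22 (SE 0.57, edgeR adjusted p = 0.0611), though it did without clone 1 replicate 1 (-1.60) and with limma-voom (-1.35). The CMPK2 difference in clone 2 passed with no filter on low counts (-0.39) and without wild-type replicate 1 (-0.42), clone 2 replicate 1 (-0.45) or rescue replicate 2 (-0.37).

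SAMD9, a cytoplasmic restriction factor of poxviruses, rose in both clones. Its values were 5.21, 4.22 and 4.59 CPM in the libraries labelled rescue, 4.08, 3.54 and 3.38 CPM in clone 2 and 2.95, 2.06 and 2.51 CPM in clone 1, against 0.587, 0.995 and 1.17 CPM in wild-type. The groups did not overlap and wild-type was lowest. The libraries labelled rescue were still not called against clone 2 (log2 fold change 0.34, SE 0.145). That difference was called without clone 2 replicate 1 (0.45) or rescue replicate 2 (0.42) and in other alternative runs. The log2 fold change was 1.98 (SE 0.20) in clone 2 and 1.40 (SE 0.22) in clone 1, and clone 2 was higher than clone 1 by 0.58 (SE 0.17). SAMD9L, its neighbour and paralog, had 16 reads in the libraries labelled rescue, 5 in clone 2 and 6 in clone 1, against none in wild-type. It was at least 4.98-fold higher in the libraries labelled rescue than in wild-type, with the wild-type level set at the floor of 3 reads over the group.

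The OAS genes encode enzymes that make oligoadenylates, the signal that activates RNase L, and 3 of them lie side by side on chromosome 12. OAS2 had 68 reads in clone 1, at 0.950, 0.960 and 0.906 CPM in its 3 libraries. In the libraries labelled rescue it was 0.110, 0.0387 and 0 CPM, from 4 reads, and no read was found in clone 2 or in wild-type. Clone 1 was thus at least 23.1-fold higher than wild-type, with the same floor. OAS1 stood at 0.110, 0.0387 and 0.0765 CPM in the libraries labelled rescue, 0.140, 0 and 0.139 CPM in clone 2 and 1.15, 1.14 and 1.23 CPM in clone 1, against 0.210, 0.616 and 0.345 CPM in wild-type. It was higher than wild-type in every clone 1 library and lower in every clone 2 library. The log2 fold change was 1.62 (SE 0.34) in clone 1 and -1.88 (SE 0.58) in clone 2, from 7 reads against 28, and the call in clone 2 was lost without wild-type replicate 2 (-1.47).

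OAS3 and OASL also rose in clone 1. OASL, an OAS-like protein that lacks the synthetase activity, stood at 1.91, 1.63 and 2.14 CPM in the libraries labelled rescue, 0.908, 1.01 and 1.16 CPM in clone 2 and 6.90, 6.04 and 5.60 CPM in clone 1, against 0.671, 0.474 and 0.827 CPM in wild-type. The 4 groups did not overlap. Its log2 fold change was 3.18 (SE 0.19) in clone 1, and in the libraries labelled rescue over clone 2 it was 0.90 (SE 0.21). In clone 2 over wild-type OASL was not called (0.59, SE 0.27), though it was with upper quartile scaling (0.65) and without wild-type replicate 3 (0.79). OAS3 rose in clone 1 by 0.99 (SE 0.08) and was lower in the libraries labelled rescue than in clone 2, by -0.54 (SE 0.10).

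ISG20, an exonuclease that degrades RNA, behaved otherwise, with 0.404, 0.581 and 0.573 CPM in the libraries labelled rescue, 0.663, 1.01 and 0.787 CPM in clone 2 and 0.350, 0.711 and 0.370 CPM in clone 1, against 0.378, 0.332 and 0.345 CPM in wild-type. Its mean was highest in clone 2, with a log2 fold change over wild-type of 1.18 (SE 0.35, edgeR adjusted p = 0.00363). The clone 1 values overlapped with those of wild-type and with those of clone 2. Clone 2 was not called against clone 1 (log2 fold change 0.69, SE 0.33).

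ISG15 is a ubiquitin-like protein that is attached to other proteins by ligases such as HERC5 and removed by the protease USP18. ISG15 stood at 20.2, 23.2 and 21.4 CPM in the libraries labelled rescue, 20.1, 18.7 and 19.2 CPM in clone 2 and 30.4, 30.9 and 28.7 CPM in clone 1, against 11.3, 11.7 and 9.72 CPM in wild-type. Every library of the first 3 groups was above wild-type. The log2 fold change was 1.47 (SE 0.07) in clone 1 and 0.84 (SE 0.08) in clone 2. USP18 rose by 0.34 (SE 0.07) in clone 1 and by 0.22 (SE 0.07) in clone 2. Without wild-type replicate 1 the USP18 call in clone 2 was lost (0.14). USP18 has a near-identical copy, USP41, which stood at 0.303 ± 0.0320 CPM in the libraries labelled rescue, 0.133 ± 0.0602 CPM in clone 2, 0.612 ± 0.0407 CPM in clone 1 and 0.201 ± 0.0654 CPM in wild-type, so the split of reads between them is uncertain.

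HERC5, the main ISG15 ligase in human cells, was nearly lost in clone 1. It stood at 10.4, 11.0 and 10.1 CPM in the libraries labelled rescue, 11.8, 11.2 and 12.6 CPM in clone 2 and 0.450, 0.747 and 0.494 CPM in clone 1, against 9.94, 7.82 and 8.76 CPM in wild-type. No clone 1 library overlapped with any other library, and 42 reads in clone 1 stood against 656 in wild-type. HERC5 fell in clone 1 (log2 fold change -3.92, SE 0.17) and rose in clone 2 (0.42, SE 0.09). Thus ISG15 and its protease rose in clone 1 while the RNA of its ligase fell.

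HERC6, 14005 bases upstream of HERC5 and its paralog, had another pattern. It stood at 1.98, 2.25 and 2.03 CPM in the libraries labelled rescue, 1.71, 2.13 and 1.67 CPM in clone 2 and 0.400, 0.498 and 0.617 CPM in clone 1, against 0.503, 0.427 and 0.552 CPM in wild-type. Clone 1 overlapped with wild-type (log2 fold change 0.03, SE 0.33), while clone 2 was higher by 1.85 (SE 0.25). The RefSeq promoter windows of the neighbours are printed whole because the genes parted in clone 1. Capitals mark ISRE core matches, of which HERC5 has 3, 2 of them overlapping, and HERC6 none. The HERC5 window holds 21 CG dinucleotides and that of HERC6 holds 16.
HERC5 (chr4:88456869-88457168, plus strand): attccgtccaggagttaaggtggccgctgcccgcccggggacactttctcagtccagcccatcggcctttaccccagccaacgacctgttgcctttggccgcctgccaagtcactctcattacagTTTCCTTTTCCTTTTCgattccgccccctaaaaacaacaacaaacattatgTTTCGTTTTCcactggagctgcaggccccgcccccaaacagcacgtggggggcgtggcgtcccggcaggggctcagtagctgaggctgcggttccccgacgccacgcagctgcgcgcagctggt
HERC6 (chr4:88378602-88378901, plus strand): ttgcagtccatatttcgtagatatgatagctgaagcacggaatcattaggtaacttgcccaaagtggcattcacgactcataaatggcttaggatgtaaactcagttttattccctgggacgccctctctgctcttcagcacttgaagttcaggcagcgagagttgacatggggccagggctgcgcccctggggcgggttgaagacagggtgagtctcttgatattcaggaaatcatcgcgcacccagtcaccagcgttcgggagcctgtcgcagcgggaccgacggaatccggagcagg

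PARP9, DTX3L and PARP14, from a cluster on chromosome 3, rose in clone 1. PARP9 and DTX3L encode partners in a ubiquitin ligase complex and PARP14 an ADP-ribosyltransferase. PARP9 averaged 11.7 ± 0.526 CPM in the libraries labelled rescue, 8.64 ± 0.192 CPM in clone 2, 11.6 ± 1.08 CPM in clone 1 and 6.31 ± 0.468 CPM in wild-type. DTX3L averaged 19.3 ± 0.812 CPM, 13.3 ± 1.18 CPM, 18.2 ± 0.725 CPM and 12.1 ± 0.473 CPM in the same groups. PARP9 was also called higher in clone 2 than in wild-type (log2 fold change 0.45, SE 0.10). DTX3L was not called there (0.12, SE 0.08), though it was with upper quartile scaling (0.19). In the libraries labelled rescue over clone 2, PARP9 was higher by 0.43 (SE 0.09) and DTX3L by 0.55 (SE 0.07) on the log2 scale. These genes start head to head and share 217 exon bases on opposite strands. PARP14 rose by 0.82 (SE 0.06) in clone 2 and 0.68 (SE 0.06) in clone 1. Its fall in the libraries labelled rescue over clone 2 was -0.16 (SE 0.06), with overlapping values. That call was lost with no filter on low counts (-0.135) and without clone 2 replicate 1 (-0.15) or 2 (-0.11) or rescue replicate 1 (-0.10).

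Of the members that share the IFI name, IFI6 and IFI27 rose most. IFI6, a membrane protein that restricts flavivirus replication, stood at 19.8, 23.0 and 19.7 CPM in the libraries labelled rescue, 19.8, 18.9 and 19.6 CPM in clone 2 and 44.2, 47.9 and 52.8 CPM in clone 1, against 10.3, 8.10 and 9.17 CPM in wild-type. Clone 1 was highest, wild-type lowest, and the other groups overlapped. Its log2 fold change was 2.39 (SE 0.07) in clone 1 and 1.08 (SE 0.09) in clone 2. IFI27 stood at 0.624, 0.581 and 0.612 CPM in the libraries labelled rescue, 0.873, 0.759 and 0.972 CPM in clone 2 and 3.55, 3.45 and 2.06 CPM in clone 1, against 0.545, 0.521 and 0.448 CPM in wild-type. It rose by 2.58 (SE 0.25) in clone 1. In clone 2 its log2 fold change was 0.79 (SE 0.32). That call was lost with DESeq2, without wild-type replicate 3 (0.69) and without clone 2 replicate 1 (0.78) or replicate 3 (0.70).

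The neighbours IFI44 and IFI44L, whose products are linked to antiviral and feedback roles, did not share the rise. IFI44 averaged 22.2 ± 0.346 CPM in the libraries labelled rescue, 13.6 ± 0.798 CPM in clone 2, 15.2 ± 1.34 CPM in clone 1 and 18.7 ± 0.729 CPM in wild-type. Clone 2 over wild-type, the IFI44 log2 fold change was -0.46 (SE 0.07), and clone 1 over wild-type it was -0.31 (SE 0.07), both called. IFI44L averaged 4.59 ± 0.194 CPM, 2.47 ± 0.230 CPM, 3.65 ± 0.0916 CPM and 3.69 ± 0.0714 CPM in the same groups, and fell in clone 2, by 0.56 (SE 0.14). With OASL (0.90, given above) and IFI35, these genes had the largest log2 fold changes among the members called higher in the libraries labelled rescue than in clone 2. They were 0.88 (SE 0.13) for IFI44L, 0.82 (SE 0.15) for IFI35 and 0.70 (SE 0.07) for IFI44. IFI35 also rose in clone 1, by 0.57 (SE 0.15). In those libraries IFI44 and IFI44L were also above wild-type, by 0.25 (SE 0.06) and 0.31 (SE 0.12), but the call of IFI44L was lost with DESeq2 and without wild-type replicate 3 (0.30) or rescue replicate 1 (0.28).

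The genes upstream of the response were taken from a separate list of 40 symbols. No interferon gene of the 8 listed (IFNA1, IFNB1, IFNE, IFNK, IFNG and 3 lambda genes) had a row, and none was analysed here. Of the 29 that were tested, 16 rose and 8 fell in clone 1 relative to wild-type, against the 30.8% and 30.7% of all genes given above. In clone 2, 8 were higher and 14 lower, against 31.5% and 30.6% of all genes. In the libraries labelled rescue over clone 2, 5 were higher and 5 lower, against 19.3% and 19.9%, and without rescue replicate 1 these counts were 3 and 3.

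STING1, the adaptor of cytosolic DNA sensing, rose in clone 1 to 163.9 ± 2.23 CPM, against 70.8 ± 5.52 CPM in wild-type, a log2 fold change of 1.21 (SE 0.04). It was 0.34 (SE 0.04) higher in clone 2 than in wild-type. TICAM1, the adaptor of TLR3, rose by 0.82 (SE 0.07) in clone 1, TLR3 by 1.11 (SE 0.31), IRF5 by 1.25 (SE 0.40) and TRIM25, a ubiquitin ligase of the RIG-I pathway, by 0.59 (SE 0.04). The feedback inhibitor SOCS1 rose there by 1.84 (SE 0.49), from 36 reads against 10. In the lambda receptor, IFNLR1 rose by 0.72 (SE 0.09) in clone 1 and fell in clone 2 (log2 fold change -0.91, SE 0.11). IFNGR1, a chain of the interferon gamma receptor, fell in clone 1 by 0.68 (SE 0.06).

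In clone 2, MYD88, an adaptor of Toll-like receptors, fell by 0.88 (SE 0.05) on the log2 scale, and PIAS1, a SUMO ligase, by 0.62 (SE 0.05). The phosphatase PTPN6 rose there by 1.61 (SE 0.36), from 64 reads against 22 in wild-type. RNF125, a ubiquitin ligase that targets RIG-I, fell by 1.08 (SE 0.10) in clone 1 and by 0.90 (SE 0.10) in clone 2. NLRX1, a mitochondrial protein that dampens antiviral signalling, had no read in the libraries labelled rescue and 3 reads in clone 2, against 240 in clone 1 and 212 in wild-type. Its log2 fold change in clone 2 over wild-type was -5.9 (SE 0.39), from those 3 reads. NLRX1 lies on chromosome 11, whose median there was -0.60, and the part of that shift in its value was not tested.

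**Figure D5:**
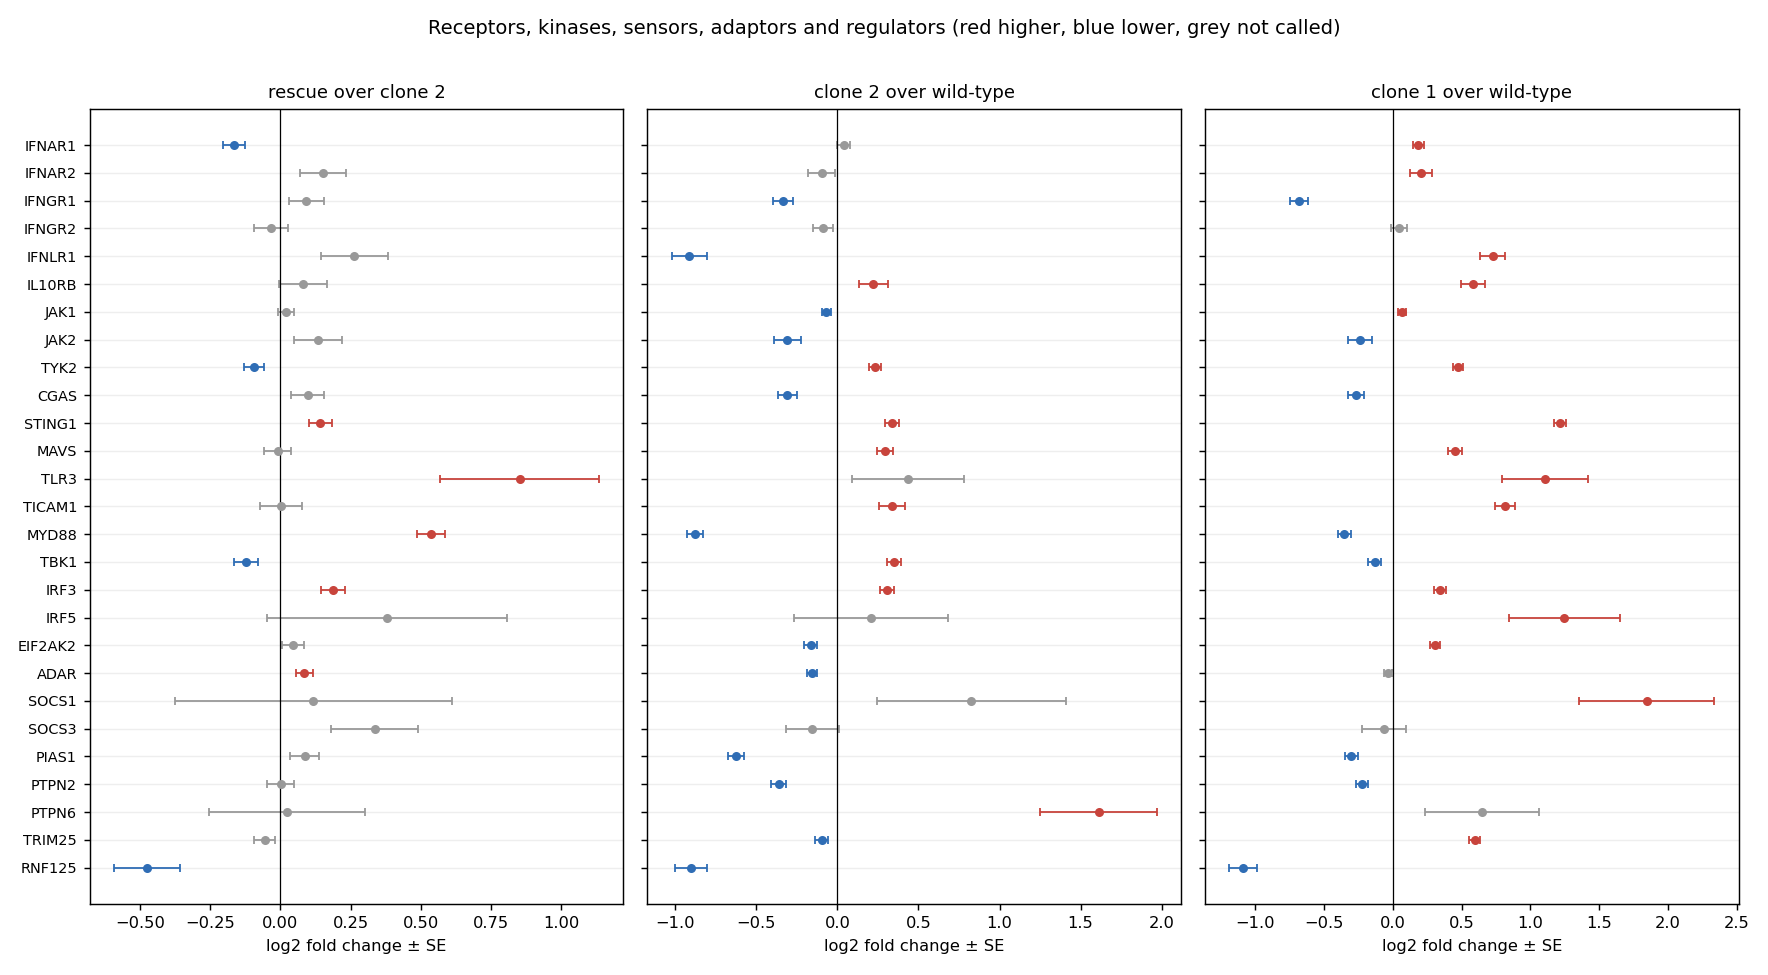
log2 fold change ± SE (horizontal axes, a separate scale in each panel) of tested genes upstream of the response, for the libraries labelled rescue over clone 2, clone 2 over wild-type and clone 1 over wild-type. Red and blue points were called higher and lower, grey points were not called, and NLRX1, with 3 reads or fewer in 2 groups, is left out. STING1, TLR3, IRF5 and SOCS1 are furthest to the right in the clone 1 panel, and RNF125 furthest to the left.

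Between the knockout clones, the difference was tested directly. Clone 2 over clone 1, the log2 fold changes were -1.69 (SE 0.04) for IFITM3, -2.90 (SE 0.15) for IRF7, -2.59 (SE 0.17) for OASL and -4.47 (SE 0.26) for BST2. HERC5, HERC6, RSAD2, CMPK2, SAMD9 and PARP14 were the 6 members higher in clone 2. Their log2 fold changes were 4.34 (SE 0.16) for HERC5, 2.38 (SE 0.48) for RSAD2, 1.82 (SE 0.25) for HERC6 and 1.26 (SE 0.21) for CMPK2. That of PARP14 was 0.14 (SE 0.06), with overlapping values. Its call was lost with DESeq2, with no filter on low counts (0.13) and without clone 1 replicate 1 (0.11) or 2 (0.11) or clone 2 replicate 1 (0.14) or 2 (0.11). IRF1, IRF9, IFIT3, IFIT5, ISG20, USP18 and IFI44 were not called between the clones. Of these, calls appeared for IFI44 without clone 1 replicate 3 (-0.20) or clone 2 replicate 1 (-0.20), for IFIT5 without clone 1 replicate 3 (0.19) and for ISG20 without clone 1 replicate 2 (1.13) or clone 2 replicate 1 (0.84). With upper quartile scaling IFIT5 (0.17) and ISG20 (0.755) were also called, as was IFIT5 with a filter of 1 CPM in 3 libraries (0.12).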

How the data were processed

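The authors deposited raw read counts per gene for 12 libraries from a stranded mRNA kit, per the labels' protocols. FastQC, STAR and hg38 are named in the submitters' processing notes, without versions. Counter, strand setting and annotation are not stated in any source used. Groups came from the titles. The members and lists were chosen with earlier results of these data known. A gene name table gave symbols for 20717 of 21569 identifiers (DDX58 as RIGI), and GENCODE release 29 gave positions and exon lengths. The test was edgeR 4.0.16 (R 4.3.3; quasi-likelihood, TMM, filterByExpr minimum count 10, group means, all 12 libraries, 8 residual degrees of freedom), with a common biological coefficient of variation of 2.95%, and was tested on simulated data. Replicates differed by more than sampling noise. Values per library are given for members called with at least a 2-fold change in clone 1 or clone 2 over wild-type or rescue over clone 2. Upstream genes were named from a called 1.5-fold change, at most 8 a comparison, and 1 gene of that list is not reported here. Floors of 3 reads over a group cover counting error only. Alternatives were DESeq2 1.42.0 size factors or Wald test, limma 3.58.1 voom, upper quartile scaling, other filters, only the groups compared, a replicate block and leaving out each library.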

Additional observations from a re-analysis of the deposited data

Results flagged for a closer look

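For 6 members the called change over wild-type ran in opposite directions in the knockout clones. The log2 fold changes of clone 2 over clone 1 were -2.896 for IRF7, -1.514 for IFITM1, -1.172 for IFITM2, -1.692 for IFITM3 and -3.491 for OAS1, each called lower in clone 2 and higher in clone 1, relative to wild-type. HERC5 ran the other way, at 4.344, called higher in clone 2 and lower in clone 1, relative to wild-type. These genes were picked for opposite calls against the same wild-type libraries, which nearly fixes the difference between the clones, so the values describe its size and are no separate test. IRF7 and the IFITM genes lie on chromosome 11, whose median log2 fold change was -0.56 in clone 2 over clone 1, and its part in their values was not tested. The OAS1 value rests on 7 reads in clone 2 against 85 in clone 1, and its call in clone 2 over wild-type was lost without wild-type replicate 2 (-1.47). Groups of 3 were too small for a check of single outlying libraries.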

How the results depend on the processing

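The counts of called members stayed within 1.5 times their value under every alternative run. Leaving out 1 library at a time gave 29 to 31 called in clone 1 over wild-type, 22 to 25 in clone 2 over wild-type and 13 to 18 in the libraries labelled rescue over clone 2. The count of upstream genes called in the libraries labelled rescue over clone 2 ran from 6 (without rescue replicate 1) to 10. With no filter on low counts it was 5 higher and 3 lower. Of 3453 values of single members, 3343 kept their direction and side of the threshold, 30 lost a call, 50 gained a call and 30 changed sign, none of the last called with all libraries. With upper quartile scaling the sign changed for DDX58 in clone 2 over wild-type (0.055), IFITM1 in rescue over clone 2 (-0.011) and IRF7 in rescue over wild-type (0.029), and with no filter for IFIT1 in clone 2 over wild-type (-0.025). Without 1 library, values ran from -0.137 to 0.139 for HERC6 in clone 1 over wild-type, -0.123 to 0.068 for DDX58 and -0.044 to 0.021 for IFIT1 in clone 2 over wild-type, and -0.038 to 0.059 for IFITM1 and -0.826 to 0.071 for OAS1 in rescue over clone 2. In rescue over wild-type they ran from -0.127 to 0.097 for IRF7, -0.512 to 0.033 for IRF9 and -0.498 to 0.18 for BST2, and in clone 2 over clone 1 from -0.006 to 0.09 for IRF1 and -0.106 to 0.184 for IRF9. The cause was not tested. DESeq2's Wald test lost 4 calls: IFI27 in clone 2 over wild-type (0.79), PARP14 in clone 2 over clone 1 (0.15), and IFI44L (0.31) and HERC5 (0.24) in rescue over wild-type.

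No pair of groups had every same-number correlation above 0.1, so the numbers were not taken as pairs. For clone 2 and clone 1, same-number correlations were 0.0423 to 0.0897 and the others -0.078 to -0.00595, so each library correlated best with its own number, a hint from the data and not the design. For clone 2 and wild-type, same-number correlations were -0.0113 to 0.116. A replicate block left 29 members called in clone 1 over wild-type, 24 in clone 2 over wild-type and 14 in rescue over clone 2, as without it. In clone 2 over clone 1 it gave 30 against 28, adding IFIT5 and ISG20. Members under about 1 CPM, such as OAS1, DHX58 and RSAD2, are limited by depth.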
